A study of Mus musculus with 28 samples.

Results

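Toll-like receptors are pattern recognition receptors, each of which binds a class of microbial or cell-derived molecules and signals through an intracellular TIR domain. The 10 genes described here are the listed mouse Tlr genes Tlr1, Tlr2, Tlr3, Tlr4, Tlr5, Tlr6, Tlr7, Tlr8, Tlr9 and Tlr13, each found by matching its Ensembl gene ID to its symbol, out of 55487 gene IDs in every library. Their transcripts were read as TPM, a unit that scales reads by transcript length and library total, so that levels can be compared between genes.

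The material was poly(A) RNA of bone marrow derived macrophages from wild-type mice, in 28 libraries and 7 groups of 4. The strain, sex and age of the mice are not given in the sources used here. Macrophages were kept for 48 h without a polarizing cytokine (M0), with IFN-γ or with IL-10, each cytokine at 50 ng/mL. Each cytokine has 3 sorted populations, here called Treg-phagocytic after engulfment of dying regulatory T cells, Tconv-phagocytic after engulfment of dying conventional CD4 T cells, and non-phagocytic where no engulfed T cell was seen. The T cells had been killed with ATP/NAD+ and carried a fluorescent antibody against CD4, so that the sort read the label of the engulfed cell. The M0 labels name no T cells and no uptake status. Differences from M0 therefore cannot separate the cytokine from the co-culture or from the sort. The study asked how engulfing either kind of T cell changes macrophage transcription under different polarization. The labels do not say that the 4 libraries of a group came from separate mice or cultures, so p-values measure the spread between these libraries, which may be technical. Phagocytic libraries are named by dye and number as in their titles (BV421 or Ax647), and the library names give the other dye for all Treg-phagocytic libraries.

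As background, Tlr2 pairs with Tlr1 or Tlr6 at the cell surface to bind bacterial lipopeptides, Tlr4 binds lipopolysaccharide together with Ly96 and Cd14, and Tlr5 binds flagellin. Tlr3, Tlr7, Tlr8, Tlr9 and Tlr13 sit in endosomes and read nucleic acids: double-stranded RNA by Tlr3, single-stranded RNA by Tlr7 and Tlr8, unmethylated CpG DNA by Tlr9 and bacterial ribosomal RNA by Tlr13. The endosomal receptors need the chaperone Unc93b1 to leave the endoplasmic reticulum, and they face the same compartment into which a macrophage delivers an engulfed cell. Most of these receptors signal through the adaptor Myd88, Tlr3 through Ticam1, and Tlr4 through both.

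In the mouse genome (GRCm38, the assembly also called mm10, GENCODE vM21 annotation) the genes lie on several autosomes and the X chromosome. Tlr1 (chr5:64924679-64933563) and Tlr6 (chr5:64952031-64960097) are neighbours on the minus strand, and Tlr7 (chrX:167304929-167330558) and Tlr8 (chrX:167242696-167264329) are neighbours on the minus strand of the X chromosome. Tlr2 is at chr3:83836272-83841767, Tlr3 at chr8:45395665-45411080, Tlr4 at chr4:66827584-66930284, Tlr5 at chr1:182954788-182976044, Tlr9 at chr9:106222598-106226883 and Tlr13 at chrX:106143204-106160493. Tlr1 and Tlr6 are near copies over part of their length. They share 454 stretches of 50 nt, and 15.4% of such stretches in Tlr1 and 12.3% in Tlr6 occur in another gene, so how reads were divided between these neighbours is uncertain. For Tlr2, Tlr3, Tlr5, Tlr7, Tlr8, Tlr9 and Tlr13 no stretch of 50 nt occurred in another gene. Exons of Tlr3 overlap the predicted gene Gm45542 on the opposite strand, and the library kit keeps strand, but the setting used in counting is not given in the sources used here.

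The bases upstream of the transcription start are shown for 4 members, the 3 with a PU.1 core and Tlr2, the shared partner of the lipopeptide receptors (RefSeq starts, GRCm38.p6; 8 of the 10 members had an entry, Tlr4 and Tlr7 did not). Capitals mark matches to 1 of 3 motifs searched on both strands in the 250 bases before the start: the core of the interferon-stimulated response element (GAAA, any 2 bases, GAAA), an NF-kB site (GGG, any 5 bases, CC) and the core of the PU.1 site (GAGGAAG). Bases inside an annotated exon were left out, so some of the sequences are shorter than 250 bases. Each is printed 5′ to 3′ on the strand of its gene.
Tlr1, chr5:64933564-64933808, minus strand: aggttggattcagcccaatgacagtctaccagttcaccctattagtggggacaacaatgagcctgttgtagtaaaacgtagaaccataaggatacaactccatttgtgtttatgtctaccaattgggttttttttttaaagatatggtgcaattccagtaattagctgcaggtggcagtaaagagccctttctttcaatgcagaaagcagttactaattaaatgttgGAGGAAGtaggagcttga
Tlr2, chr3:83841768-83841858, minus strand: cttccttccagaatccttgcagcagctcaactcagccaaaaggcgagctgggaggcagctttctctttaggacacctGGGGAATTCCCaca
Tlr9, chr9:106222348-106222597, plus strand: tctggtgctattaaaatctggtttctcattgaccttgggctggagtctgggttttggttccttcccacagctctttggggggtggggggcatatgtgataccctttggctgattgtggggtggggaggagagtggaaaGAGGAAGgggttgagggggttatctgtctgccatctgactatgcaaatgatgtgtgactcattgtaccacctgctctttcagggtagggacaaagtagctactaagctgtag
Tlr13, chrX:106143025-106143203, plus strand: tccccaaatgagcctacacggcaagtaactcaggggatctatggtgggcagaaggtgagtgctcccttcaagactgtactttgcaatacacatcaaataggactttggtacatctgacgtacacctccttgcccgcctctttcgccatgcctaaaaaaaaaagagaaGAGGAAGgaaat
The PU.1 core stood in 3 members, Tlr1, Tlr9 and Tlr13, starting 23, 112 and 83 bases before the start, against 10.6% of all 32851 promoters in the table. The NF-kB letters stood in 4 members, Tlr2, Tlr3, Tlr5 and a second start of Tlr6, and in 45.8% of promoters. The ISRE core stood in Tlr6 only and in 2.98% of promoters. These matches describe the letters and show no binding.

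The depth of the libraries differed with the cytokine. Relative to the deepest library, depth read from the steps of low TPM values spanned 11.1% to 24.1% with IFN-γ (12 libraries), 48.8% to 90.1% with IL-10 (12 libraries) and 68.5% to 100% in M0. Of the 7 macrophage markers checked, among them Adgre1 and Csf1r, none was at 0 in any group. The summed level of 11 T cell markers was 436 to 850 TPM with IFN-γ, 81.6 to 205 TPM with IL-10 and 53.4 to 137 TPM in M0, so T cell transcripts also moved with the cytokine. In such bulk RNA, fewer cells of a type and less RNA per cell cannot be told apart. The part of T cell RNA and of depth in the results below was not tested.

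In M0 macrophages the endosomal receptors led the family. Tlr7 was at 61.16, 51.38, 60.09 and 47.10 TPM in the 4 libraries, Tlr8 at 50.4 ± 2.36 TPM (SD, n = 4) and Tlr13 at 49.7 ± 0.268 TPM, and these 3 overlapped in their ranges. Tlr9 followed at 24.6 ± 0.456 TPM, and Tlr4 and Tlr2 at 19.9 ± 1.59 and 18.9 ± 1.14 TPM, whose ranges overlapped. Tlr6 (12.2 ± 2.32 TPM) and Tlr1 (11.3 ± 0.905 TPM) overlapped below these, Tlr3 was lower at 4.01 ± 0.262 TPM, and Tlr5 was close to the detection limit at 0.06 to 0.13 TPM. The 5 surface receptors together made up 25.3% ± 0.768 of the summed family transcripts in M0.

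**Figure D1:**
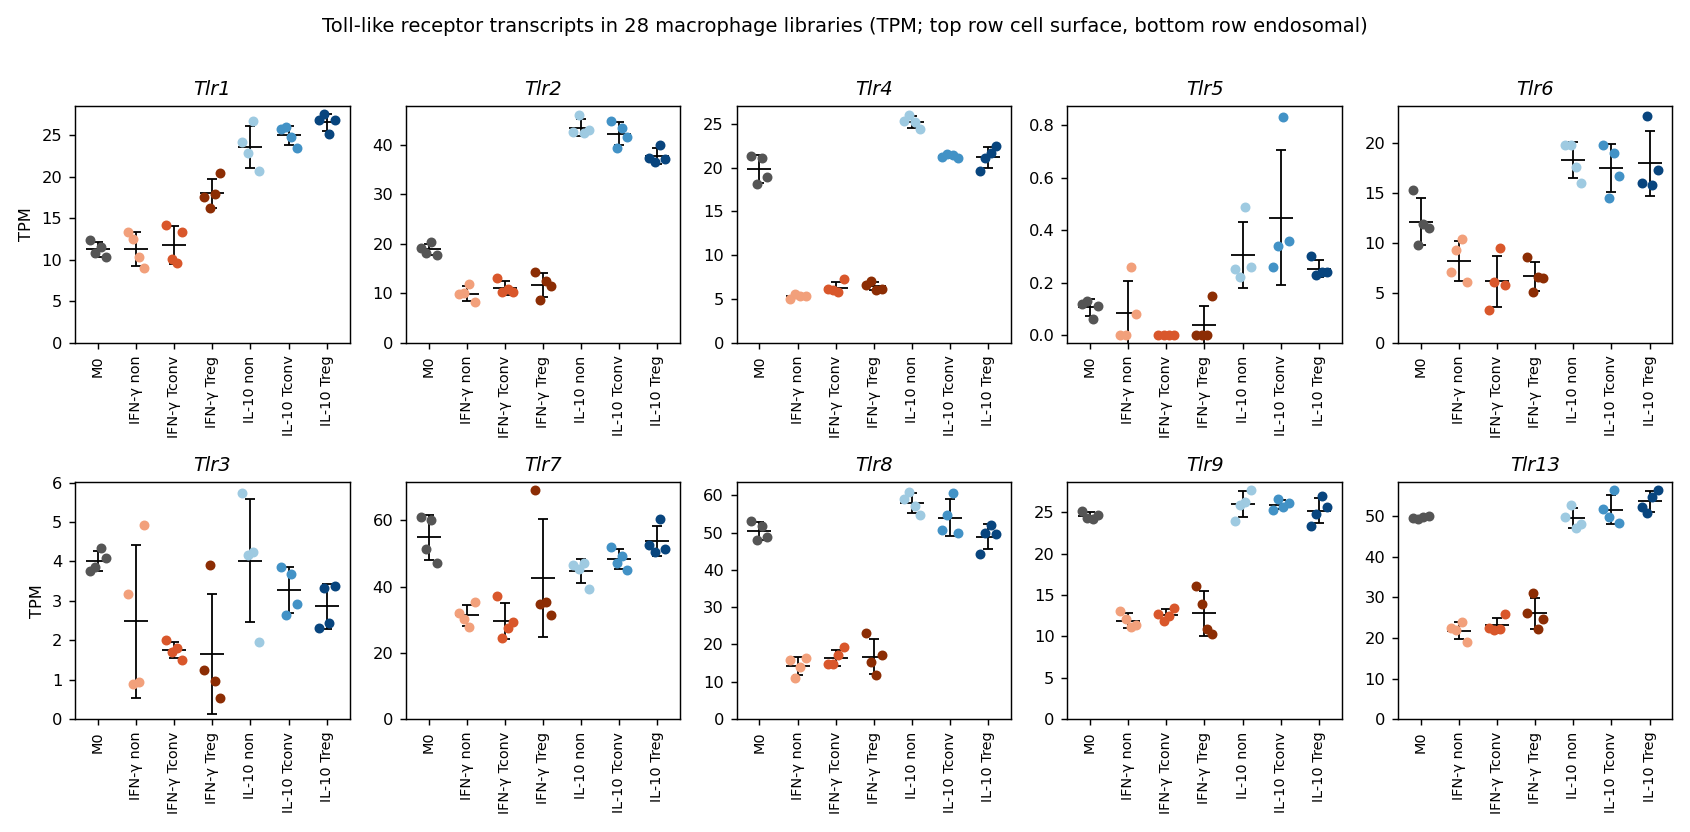
Transcript level (TPM, linear axes) of each of the 10 receptors in the 28 libraries, with the surface receptors in the top row and the endosomal ones in the bottom row. Points are libraries, coloured by group, and bars are the group mean and SD of 4 libraries; Tlr1, Tlr2, Tlr4, Tlr6, Tlr8, Tlr9 and Tlr13 are lower in all 12 IFN-γ than in all 12 IL-10 libraries, and 1 IFN-γ Treg library stands apart for Tlr7 at 69.29 TPM.

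IFN-γ macrophages held fewer transcripts of nearly the whole family than IL-10 macrophages. The summed unscaled level of the 10 genes was 117 ± 3.60 TPM (SD, n = 4) in IFN-γ non-phagocytic libraries and 293 ± 11.9 TPM in IL-10 non-phagocytic libraries. Scaling raises IFN-γ values and lowers IL-10 values (log2 factors -0.254 to -0.066 and 0.074 to 0.171), so the gap in scaled values is smaller. After scaling, 6 members (Tlr2, Tlr4, Tlr6, Tlr8, Tlr9 and Tlr13) were lower in each of the 12 IFN-γ libraries than in each of the 12 IL-10 libraries, a pattern that 10.1% of the 13631 genes tested showed. Tlr3 and Tlr7 overlapped between the cytokines, and Tlr1 did so after scaling, while its unscaled TPM did not. The overlap of Tlr7 in TPM came from IFN-γ Treg library Ax647-1 at 69.29 TPM. All other IFN-γ libraries were at 24.58 to 37.07 TPM, and IL-10 libraries at 39.27 to 60.31 TPM. After scaling, its IFN-γ and IL-10 non-phagocytic groups overlapped as well. The plot of the members by library shows these separations.

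Tlr4, the lipopolysaccharide receptor, had the largest fitted gap of the 9 tested members between the non-phagocytic groups. Its level was 5.02, 5.54, 5.36 and 5.40 TPM in IFN-γ non-phagocytic libraries and 25.28, 25.98, 25.17 and 24.37 TPM in IL-10 non-phagocytic libraries. Every IFN-γ library thus lay far below every IL-10 library. Here and below, non-overlap of groups of 4 libraries only describes the values, as the share of all genes that separate is not given here. Differences between groups were tested with limma on log2(scaled TPM + 1), fitted over 13631 genes that reached 1 TPM in 4 or more libraries, and a gene was called at an adjusted p (Benjamini-Hochberg over all of them) under 0.05; on this scale the change of low genes is understated. The fitted difference for Tlr4 was -1.78 ± 0.0802 (log2, SE), or 3.42-fold lower under IFN-γ (limma adjusted p = 2.68e-07).

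Tlr2, the shared partner of the lipopeptide receptors, followed. It was at 9.82, 10, 11.83 and 8.17 TPM in IFN-γ non-phagocytic libraries and at 42.53, 45.99, 42.41 and 42.94 TPM in IL-10 non-phagocytic libraries. The groups were separate, with a fitted log2 difference of -1.74 ± 0.101 (3.35-fold lower, limma adjusted p = 1.19e-06). Its partners differed less: Tlr6 was 8.24 ± 1.98 TPM against 18.3 ± 1.82 TPM (1.75-fold lower, limma adjusted p = 0.00235), and Tlr1 was 11.3 ± 2.02 TPM against 23.6 ± 2.51 TPM (1.65-fold lower, limma adjusted p = 0.00192).

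Among the endosomal receptors, Tlr8 differed most. It was at 15.71, 11.10, 13.93 and 16.27 TPM in IFN-γ non-phagocytic libraries and at 59.08, 61.00, 57.23 and 54.70 TPM in IL-10 non-phagocytic libraries. This is a log2 difference of -1.67 ± 0.115 (3.19-fold lower, limma adjusted p = 3.54e-06). Tlr13 (21.8 ± 1.99 against 49.5 ± 2.47 TPM) and Tlr9 (11.9 ± 0.867 against 26.0 ± 1.56 TPM) fell to a similar degree, with log2 differences of -0.86 and -0.78. The gap was smaller for the neighbour of Tlr8 on the X chromosome. Tlr7 was at 31.4 ± 3.18 TPM under IFN-γ and 44.6 ± 3.64 TPM under IL-10, a log2 difference of -0.20 ± 0.0938 that was not called (limma adjusted p = 0.103), but was without scaling (0.00132), after correcting for GC content and length (0.00798) or without IFN-γ non-phagocytic library 4 (0.0409). Tlr3 was not called either, at 3.17, 0.89, 0.94 and 4.92 TPM against 5.73, 4.16, 4.24 and 1.96 TPM. Its libraries spread widely within both groups.

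In all, 7 of the 9 tested members were lower and 0 higher in IFN-γ than in IL-10 non-phagocytic macrophages, where 25.1% of all genes tested were called lower and 26.0% higher. The median log2 difference was -0.81 over the 9 members and -0.01 over all genes tested. The same direction was seen after uptake. Of the tested members, 9 were lower in IFN-γ Tconv-phagocytic than in IL-10 Tconv-phagocytic libraries (background lower calls 25.2%), and 6 were lower between the Treg-phagocytic groups (background 18.2%). No member was called higher under IFN-γ in any of the 3 uptake states by this fit.

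After Tconv uptake the called members included the ones missed without uptake. Tlr7 was at 37.07, 24.58, 27.57 and 29.19 TPM under IFN-γ and 51.92, 47.28, 49.14 and 44.91 TPM under IL-10 (log2 difference -0.53 ± 0.120, limma adjusted p = 0.00491). Tlr3 was at 1.75 ± 0.207 against 3.28 ± 0.589 TPM (-0.51 ± 0.149, limma adjusted p = 0.0182). Neither gene's groups overlapped here, which only describes the values, as the share of all genes that separate is not given here. The call of Tlr3 was lost when all 28 libraries shared 1 model (adjusted p = 0.203), with a variance weight per group (0.184), and without IL-10 Tconv library BV421-1 (0.0605) or Ax647-1 (0.0559). Whether the cytokine difference itself depended on Tconv uptake was tested for every member, and 0 of 9 members passed (limma; at an unadjusted p under 0.05 there was 1, Tlr4). Of all genes, 1.68% passed.

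After Treg uptake, Tlr2 (-1.35 ± 0.130), Tlr4 (-1.30 ± 0.0909), Tlr8 (-1.24 ± 0.172), Tlr6 (-1.04 ± 0.166), Tlr13 (-0.73 ± 0.102) and Tlr9 (-0.66 ± 0.133) were lower under IFN-γ on the log2 scale. Tlr1 was at 17.55, 16.24, 17.87 and 20.39 TPM under IFN-γ and 26.82, 27.49, 25.12 and 26.82 TPM under IL-10. Its groups did not overlap in TPM, but the scaled difference of -0.25 ± 0.0887 was not called (limma adjusted p = 0.0544); it was called without scaling (0.00101), with a correction for GC content and length (0.0366) and without IFN-γ Treg library BV421-2 (0.00853). Tlr7 was not called (limma adjusted p = 0.744). Without IFN-γ Treg library Ax647-1, which held 69.29 TPM against 31.36 to 35.49 TPM in the other libraries of its group, the log2 difference was -0.34 (limma adjusted p = 0.0116). Tlr3 was called only without IFN-γ Treg library Ax647-2 (adjusted p = 0.0115 against 0.321 with it).

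**Figure D2:**
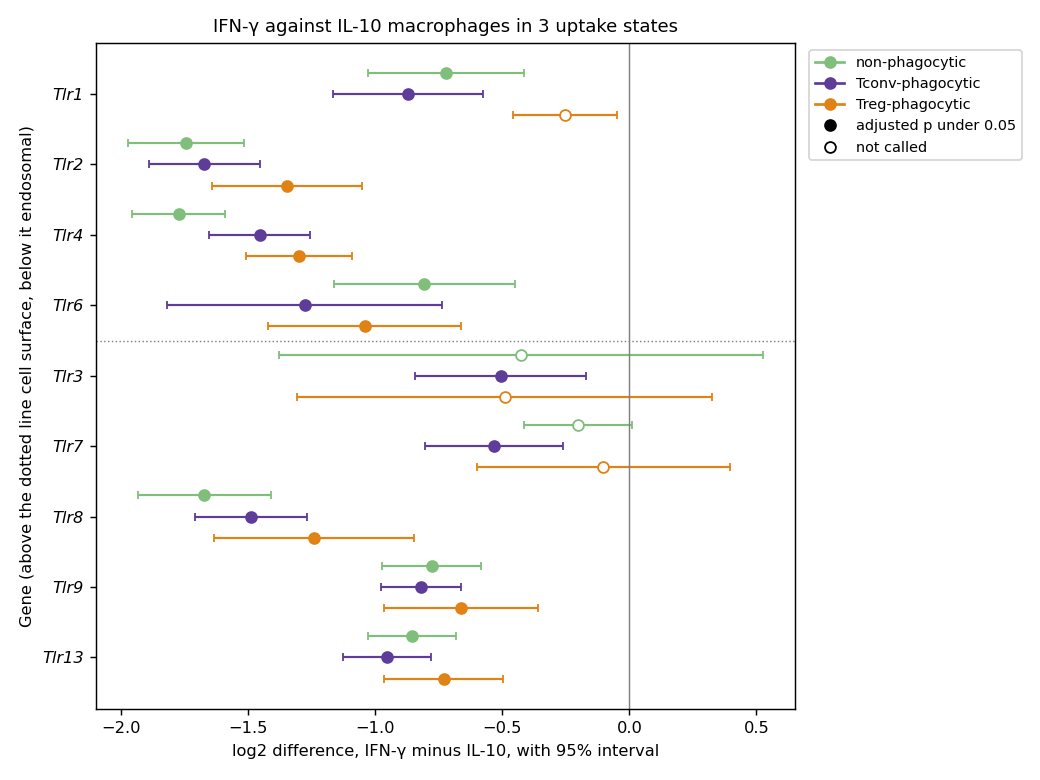
Log2 difference of scaled TPM + 1, IFN-γ minus IL-10, for the 9 tested receptors in non-phagocytic, Tconv-phagocytic and Treg-phagocytic macrophages, with 95% intervals from limma (n = 4 libraries per group). Filled points passed an adjusted p under 0.05; every point lies below 0, from -1.78 for Tlr4 without uptake to -0.10 for Tlr7 after Treg uptake.

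Values that moved with the cytokine stand beside these differences. All 11 T cell markers were called higher in IFN-γ than in IL-10 non-phagocytic libraries, with a median log2 difference of 2.59, and the depth ranges of the cytokines did not overlap. Of the 7 macrophage markers, 5 were called lower and 2 higher in the same comparison, with a median log2 difference of -0.37. Itgam, an integrin chain of myeloid cells, is among the genes most like Tlr2 below. Markers of plasmacytoid dendritic cells, which are known for high Tlr7 and Tlr9, gave little to compare: Klk1 was at 0 in all libraries, Siglech was at most 0.155 TPM as a group mean, and nearly all of the summed level of the list came from Cox6a2, itself higher with IL-10. Fibroblast markers, from cells that are also known to express Tlr4, summed to 1.33 to 5.36 TPM under IFN-γ, 12.8 to 76.3 TPM with IL-10 and 55.1 to 65.2 TPM in M0. B cell markers summed to 36.5 to 63.0 TPM under IFN-γ and 10.5 to 30 TPM with IL-10, neutrophil markers to 58.3 to 96.5 and 94.7 to 116 TPM, and conventional dendritic cell markers to at most 11.3 TPM. The neutrophil sum hides a split. Of 3 neutrophil markers tested, 2 were called higher and 1 lower in IFN-γ than in IL-10 non-phagocytic libraries (median log2 difference 1.24). The part of these cells in the differences was not tested. Without scaling, the median gene fell by 0.257 on the log2 scale in IFN-γ against IL-10 non-phagocytic libraries, and 29.9% of the called genes were higher against 50.9% with scaling. The differences above are relative to the scaled median near 0.

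Against M0, part of the family differed in opposite directions in IFN-γ and IL-10 non-phagocytic libraries. As stated above, cytokine, co-culture and sort cannot be told apart here. In IFN-γ non-phagocytic libraries 6 of 9 tested members were lower and 0 higher (background 26.1% lower and 27.0% higher). Tlr8 (-1.49 ± 0.115) and Tlr4 (-1.46 ± 0.0900) fell most on the log2 scale, then Tlr13 (-0.88), Tlr9 (-0.72), Tlr2 (-0.60) and Tlr7 (-0.50). Tlr6 (-0.26 ± 0.180) and Tlr3 (-0.49 ± 0.373) were not called. Tlr1 was 10.37 to 12.42 TPM in M0 and 9.0 to 13.40 TPM under IFN-γ without uptake, overlapping groups with a difference of 0.26 ± 0.133 that was not called (limma adjusted p = 0.137) and was -0.01 without scaling; without IFN-γ non-phagocytic library 4 it was called (0.0389). T cell markers were higher than in M0 in the same libraries, 10 of 11 by the test, and their part was not tested.

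In IL-10 non-phagocytic libraries 5 of 9 tested members were higher than in M0 (background 13.8%) and 1 was lower (background 12.8%). The lipopeptide receptors rose most. Tlr2 was at 19.27, 18.22, 20.31 and 17.76 TPM in M0 against 42.53 to 45.99 TPM with IL-10, 2.21-fold higher (limma adjusted p = 6.19e-07). Tlr1 rose 1.97-fold (limma adjusted p = 4.39e-05) and Tlr6 1.46-fold (0.0106). Tlr4 rose 1.25-fold, from 21.36, 18.15, 21.07 and 18.87 TPM to 24.37 to 25.98 TPM (limma adjusted p = 0.00334), and Tlr8 rose 1.14-fold (0.0133). With all 28 libraries in 1 model the calls of Tlr6 (adjusted p = 0.0722) and Tlr8 (0.515) were lost. For each of these 5 genes the IL-10 libraries lay above the M0 libraries without overlap. The share of all genes that separate in this way is not given here, so this only describes the values. Tlr7 was the 1 member that was lower, at 47.10 to 61.16 TPM in M0 and 39.27 to 47.26 TPM with IL-10, which touch in TPM and not after scaling (log2 -0.30 ± 0.0910, limma adjusted p = 0.0393). That call was lost in 10 of the alternatives tried, 7 of which left out 1 library, any of the 8 but M0 library 4, with adjusted p between 0.0521 and 0.0994 in those 7. The intervals of Tlr9 (-0.05 to 0.17) and Tlr13 (-0.11 to 0.07) on the log2 scale were narrow around 0.

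**Figure D3:**
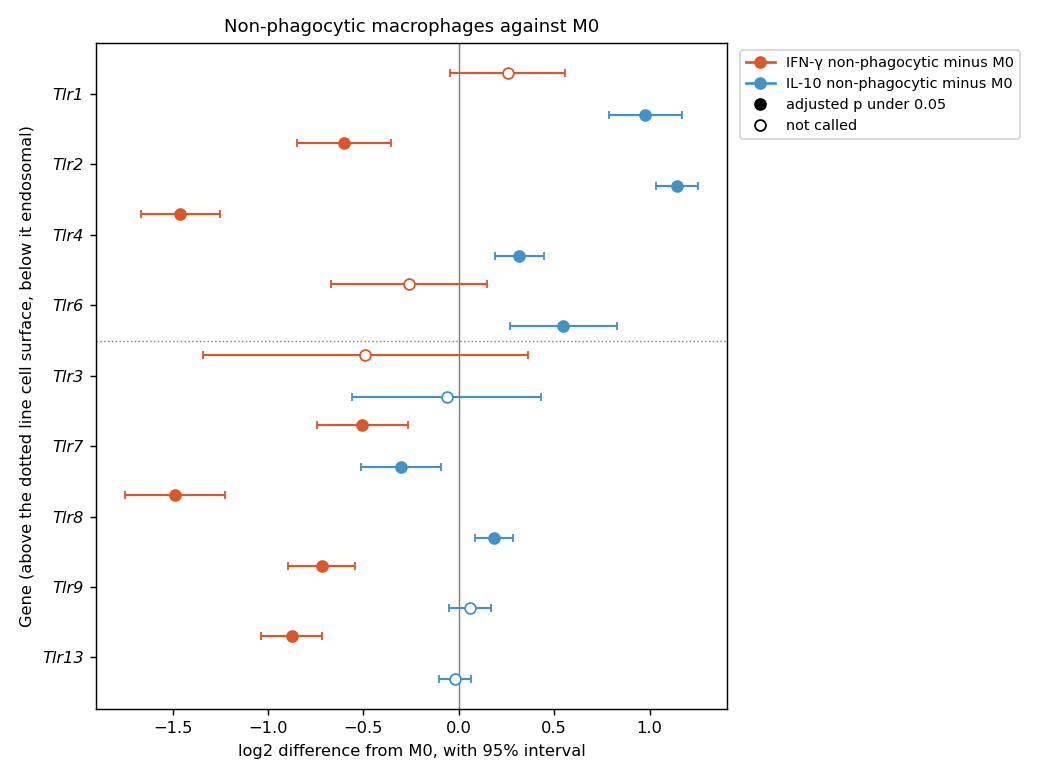
Log2 difference of scaled TPM + 1 from M0 for the 9 tested receptors in IFN-γ and IL-10 non-phagocytic macrophages, with 95% intervals from limma (n = 4 libraries per group); filled points passed an adjusted p under 0.05. With IL-10 the surface receptors lie right of 0, up to 1.14 for Tlr2, and with IFN-γ Tlr4 and Tlr8 lie near -1.5.

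These shifts changed the make-up of the family. The surface receptors held 25.3% ± 0.768 of the family's TPM in M0, 37.9% ± 0.206 in IL-10 non-phagocytic libraries and 29.9% ± 3.89 in IFN-γ non-phagocytic libraries (SD, n = 4). The endosomal sum was 184 ± 9.06 TPM in M0 and 182 ± 7.47 TPM in IL-10 non-phagocytic libraries, and 81.8 ± 5.75 TPM in IFN-γ non-phagocytic ones. The surface sum went from 62.3 ± 5.36 TPM in M0 to 111 ± 4.54 TPM with IL-10 and 34.9 ± 4.30 TPM with IFN-γ. The ratio of Tlr7 to Tlr8 TPM was 1.09 ± 0.0915 in M0, 0.769 ± 0.0473 in IL-10 non-phagocytic and 2.23 ± 0.337 in IFN-γ non-phagocytic libraries, with no overlap between the 3 groups. The ratio of Tlr2 to Tlr4 was 0.953 ± 0.0425 in M0 and above 1 in every cytokine group (group means 1.72 to 1.99). The sums are of unscaled TPM, which widens the gap between IFN-γ and the other libraries. These sums and ratios are descriptions without a test. Over the groups, Tlr7 ranked first in M0 and under IFN-γ, whereas Tlr8 ranked first in IL-10 non-phagocytic libraries, where it did not overlap with Tlr13 behind it. In IL-10 Tconv-phagocytic libraries Tlr8 also ranked first but overlapped Tlr13. In IL-10 Treg-phagocytic libraries Tlr7 ranked first at a mean of 53.7 TPM and overlapped Tlr13 at 53.6 TPM. The order under IFN-γ without uptake was Tlr7, then Tlr13, each separate from the next, then Tlr8, Tlr9, Tlr1, Tlr2 and Tlr6, whose neighbours overlapped, and then Tlr4, Tlr3 and Tlr5. Tlr4 thus ranked 5 in M0 and 8 under IFN-γ. With IL-10 without uptake, Tlr13, Tlr7 and Tlr2 overlapped behind Tlr8, then Tlr9, Tlr4 and Tlr1 overlapped, and Tlr6, Tlr3 and Tlr5 followed as separate steps.

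**Figure D4:**
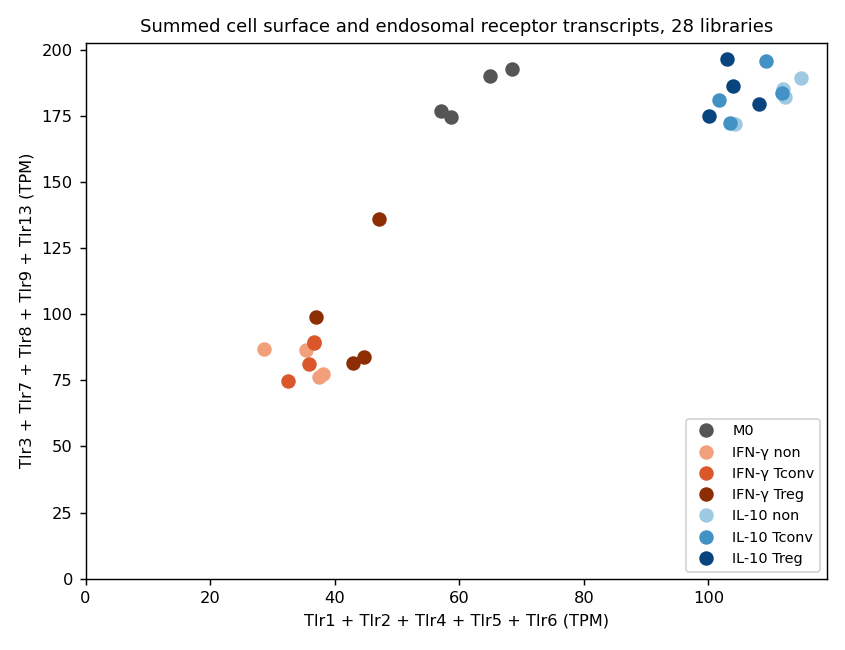
Summed unscaled TPM of the endosomal receptors against that of the surface receptors in each of the 28 libraries, coloured by group, with both axes from 0. M0 and IL-10 libraries share an endosomal sum of 172 to 196 TPM but differ in the surface sum (57.1 to 68.5 TPM against 100 to 115 TPM), and IFN-γ libraries lie low on both axes.

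Tlr1 was the 1 member called between macrophages that had engulfed different kinds of T cell, and only with IFN-γ. Under IFN-γ it was at 17.55, 16.24, 17.87 and 20.39 TPM after Treg uptake, 14.15, 10.06, 9.65 and 13.39 TPM after Tconv uptake, and 13.40, 12.54, 10.32 and 9.0 TPM without uptake. All Treg-phagocytic libraries lay above all others of the cytokine, a description given without the share of all genes that separate. Against Tconv-phagocytic libraries Tlr1 was 1.63-fold higher (log2 0.70 ± 0.157, limma adjusted p = 0.0236), and against non-phagocytic libraries 1.64-fold higher (log2 0.72 ± 0.149, limma adjusted p = 0.0250). It was 1 of 9 tested members called in either comparison, where 12.7% and 8.28% of all genes were called. By dye in the titles, Treg- against Tconv-phagocytic libraries were at 17.87 and 20.39 against 10.06 and 14.15 TPM for BV421. For Ax647 they were at 16.24 and 17.55 against 9.65 and 13.39 TPM. This order within a dye follows from the separation of the groups and is no check of the dye. The calls were close to the threshold. Against Tconv the adjusted p was 0.0546 to 0.0685 without Tconv library BV421-2 or Ax647-1 or without Treg library BV421-1 or BV421-2, and 0.0576 with no filter. Against non-phagocytic libraries it was 0.0548 to 0.0617 when 1 of 5 libraries was left out (non-phagocytic 3 or 4, Treg Ax647-1, BV421-1 or BV421-2) and 0.0546 with no filter. The near copy Tlr6 was at 8.60, 5.07, 6.56 and 6.52 TPM after Treg uptake and 3.25, 6.11, 9.51 and 5.78 TPM after Tconv uptake and these overlapped. Without uptake it was at 7.14, 9.36, 10.38 and 6.06 TPM, with a log2 difference (Treg minus non-phagocytic) of -0.19 ± 0.206, not called. The ratio of Tlr1 to Tlr6 TPM was 2.77 ± 0.532 after Treg uptake, 2.33 ± 1.45 after Tconv uptake and 1.42 ± 0.365 without uptake. The part of read division between these near copies was not tested. Macrophage markers moved in the same comparison, with 4 of 7 called higher and 1 lower in Treg- than in Tconv-phagocytic libraries, while 1 of 11 T cell markers was called. Their part in the Tlr1 difference was not tested.

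Under IL-10 the same contrast gave 25.12 to 27.49 TPM after Treg uptake and 23.49 to 25.97 TPM after Tconv uptake for Tlr1, a log2 difference of 0.09 ± 0.0475 (limma adjusted p = 0.482). The difference between the cytokines was itself tested: the Treg minus Tconv contrast of Tlr1 was larger under IFN-γ, with a log2 gap of 0.62 ± 0.163 (limma adjusted p = 0.0179). That was 1 of 9 members, with 13.6% of all genes called for this difference. Tlr2 joined it without IFN-γ Treg library Ax647-2 (adjusted p = 0.0287 against 0.218).

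No other surface receptor was called between the uptake states of IFN-γ macrophages, and their intervals were wide. Tlr2 differed by 0.17 (95% interval -0.21 to 0.54, log2) between Treg- and Tconv-phagocytic libraries and Tlr4 by 0.15 (-0.16 to 0.46). Tlr4 was at 6.65, 7.01, 6.08 and 6.17 TPM after Treg uptake, 6.13, 5.99, 5.83 and 7.26 TPM after Tconv uptake and 5.02 to 5.54 TPM without uptake. Both phagocytic groups lay above the non-phagocytic one, but neither difference was called (log2 0.31, limma adjusted p = 0.191, and 0.16, limma adjusted p = 0.851). Tlr7 was far above the rest of its group in 1 library, and without it the log2 difference between Treg- and Tconv-phagocytic libraries was 0.34 in place of 0.58 (limma adjusted p = 0.202 and 0.166). None of the endosomal receptors was called between these uptake states. Between Treg- and Tconv-phagocytic libraries Tlr1, Tlr7 and Tlr13 had an unadjusted p under 0.05 (limma), 3 of 9 members, against 3724 of 13631 genes. Between Treg-phagocytic and non-phagocytic libraries Tlr1, Tlr4 and Tlr13 did, against 3156 genes. Tlr8 was at 14.3 ± 2.33 TPM without uptake, 16.5 ± 2.14 TPM after Tconv uptake and 16.7 ± 4.71 TPM after Treg uptake (SD, n = 4), Tlr9 at 11.9 ± 0.867, 12.6 ± 0.673 and 12.8 ± 2.69 TPM, and Tlr13 at 21.8 ± 1.99, 23.1 ± 1.90 and 26.1 ± 3.76 TPM. Tlr3 was uneven after Treg uptake, at 1.24, 3.90, 0.97 and 0.53 TPM. Between IFN-γ Tconv-phagocytic and non-phagocytic libraries 0 of 9 members were called, and 0 had an unadjusted p under 0.05 (limma); 0.00734% of all genes were called there.

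Under IL-10 some receptors differed by small amounts between the sorted populations. Whether uptake itself changed them was not tested. After Treg uptake 2 of 9 members were higher and 0 lower than without uptake, against 11.3% of all genes called. Without scaling 1 was higher (Tlr7) and 3 were lower (Tlr2, Tlr4 and Tlr8). With scaling, 6 members had an unadjusted p under 0.05 (limma), against 3474 of 13631 genes. They were Tlr1, Tlr2, Tlr4, Tlr7, Tlr8 and Tlr13. Tlr7 was at 52.71, 50.60, 60.31 and 51.26 TPM after Treg uptake and 46.45, 45.45, 47.26 and 39.27 TPM without uptake, separate groups with a log2 difference of 0.34 ± 0.0746 (1.27-fold, limma adjusted p = 0.0228). Its Tconv-phagocytic libraries, at 44.91 to 51.92 TPM, lay between and overlapped both. Tlr13 was at 52.33, 50.89, 54.81 and 56.45 TPM against 49.90, 52.76, 47.17 and 48.06 TPM, overlapping in TPM but not after scaling, with a log2 difference of 0.19 ± 0.0462 (limma adjusted p = 0.0325). Tlr7 lost its call in 3 alternatives (with no filter, adjusted p = 0.0788, in 1 model of all libraries, 0.347, and without non-phagocytic library 2, 0.0511), and Tlr13 in 11, among them leaving out non-phagocytic library 1, 3 or 4 or Treg library Ax647-1, BV421-1 or BV421-2 (adjusted p 0.0543 to 0.0898). Tlr1 was not called (log2 0.25 ± 0.0748, limma adjusted p = 0.0736) and was called without non-phagocytic library 3 (0.031).

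Tlr4 moved the other way under IL-10. It was at 25.28, 25.98, 25.17 and 24.37 TPM without uptake, 21.18, 21.51, 21.38 and 21.13 TPM after Tconv uptake and 19.58, 21.06, 21.61 and 22.45 TPM after Treg uptake. Both phagocytic groups lay below the non-phagocytic one without overlap in TPM, a description given without the share of all genes that separate. The drop was called after Tconv uptake (log2 -0.15 ± 0.0346, limma adjusted p = 0.0371), 1 of 9 members with 6.02% of all genes called, and not after Treg uptake (-0.16 ± 0.0483, limma adjusted p = 0.0651). The Tconv call was lost in 10 alternatives, 7 of which left out 1 library, any of the 8 but non-phagocytic library 4 (adjusted p 0.0725 to 0.0936). Between Tconv-phagocytic and non-phagocytic libraries Tlr4, Tlr7 and Tlr13 had an unadjusted p under 0.05 (limma), against 2727 of 13631 genes. Tlr2 and Tlr8 were lower after Treg uptake than without it in TPM, at 36.51 to 40.07 against 42.41 to 45.99 TPM for Tlr2 and 44.25 to 52.00 against 54.70 to 61.00 TPM for Tlr8, and neither was called (limma adjusted p = 0.116 and 0.0918). Without scaling Tlr2 (0.0177), Tlr4 (0.0151) and Tlr8 (0.022) were called lower after Treg uptake, after correcting for GC content and length Tlr4 (0.0127) and Tlr8 (0.0128) were, and with a variance weight per group Tlr4 (0.0279) was. Tlr9 and Tlr6 overlapped between the uptake states with IL-10. Tlr9 was at 26.0 ± 1.56 TPM without uptake, 25.9 ± 0.583 TPM after Tconv uptake and 25.2 ± 1.51 TPM after Treg uptake, and Tlr6 at 18.3 ± 1.82, 17.5 ± 2.38 and 18.0 ± 3.24 TPM. Between Treg- and Tconv-phagocytic IL-10 macrophages 0 of 9 members were called, 1 (Tlr2) had an unadjusted p under 0.05, and 1.40% of all genes were called (limma).

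For Tlr4, the difference between Treg-phagocytic and non-phagocytic libraries was not the same under the 2 cytokines. The Treg minus non-phagocytic contrast was 0.31 under IFN-γ and -0.16 under IL-10, and the difference of 0.48 ± 0.115 on the log2 scale passed the test (limma adjusted p = 0.0151). It was 1 of 9 members, with 9.46% of all genes called. Tlr1 joined it without IFN-γ non-phagocytic library 1 (adjusted p = 0.0406), and Tlr2 without IFN-γ Treg library Ax647-2 (0.0211). T cell markers moved with uptake under IL-10: all 11 were called higher in Treg-phagocytic and 5 in Tconv-phagocytic than in non-phagocytic libraries, with summed levels of 174 to 205, 107 to 151 and 81.6 to 94.3 TPM. Of 4 tested fibroblast markers, 3 fell in the Treg-phagocytic and 3 rose in the Tconv-phagocytic group (12.8 to 16.0 TPM summed, against 38.8 to 45.2 TPM without uptake and 70.1 to 76.3 TPM after Tconv uptake). Their part in the uptake differences was not tested.

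**Figure D5:**
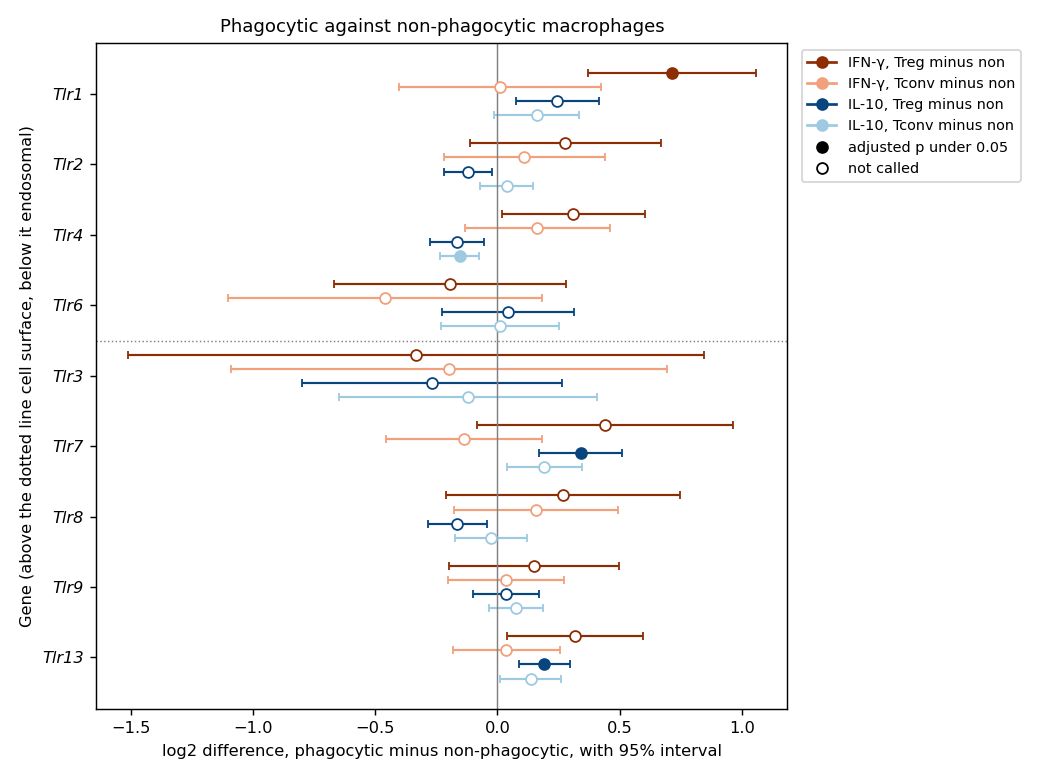
Log2 difference of scaled TPM + 1, phagocytic minus non-phagocytic, for the 9 tested receptors under each cytokine, with 95% intervals from limma (n = 4 libraries per group); filled points passed an adjusted p under 0.05. Intervals are wider under IFN-γ; the called points are Tlr1 (0.72, IFN-γ, Treg), Tlr7 (0.34) and Tlr13 (0.19, both IL-10, Treg) and Tlr4 (-0.15, IL-10, Tconv).

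Tlr5 did not pass the filter for testing and is described by its values. It was at 0 TPM in 9 of 12 IFN-γ libraries and at most 0.26 TPM in the others, where 3 reads are worth 0.220 to 0.476 TPM, and 0 of the 12 libraries exceeded that limit in their own depth. All 12 IL-10 libraries exceeded theirs, at 0.22 to 0.83 TPM with a median of 0.26 TPM, and 3 of 4 M0 libraries did, at 0.06 to 0.13 TPM. The flagellin receptor was therefore detected with IL-10 and not detectable at the depth of the IFN-γ libraries. A level like that of IL-10 macrophages could have passed unseen in some of them. By the same reading of depth, Tlr3 rested on an estimated 6 to 73 reads per IFN-γ library and Tlr4 on 47 to 106, against 74 to 229 and 578 to 1204 per IL-10 library.

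The genes most like each receptor across all 28 libraries were ranked by Pearson r of log2 scaled values among 9384 expressed genes. Tlr4 was most like Cd93 (r = 0.992) and Nrp2 (0.990), Tlr2 most like Itga6 (0.987) and Itgam (0.983), and Tlr8 most like Wdfy3 (0.979) and Atf6 (0.973). Tlr13 was most like Rtn3 (0.979) and Man1c1 (0.966), and Tlr9 most like Wdr24 (0.964) and Aplp2 (0.963). Tlr1 (Tm2d2, 0.917, and Clec4a3, 0.914) and Tlr6 (Olfm1, 0.914, and Noct, 0.903) had looser matches, and Tlr7 (Tnfrsf1b, 0.830, and Dpm2, 0.812) and Tlr3 (Arl6ip4, 0.776, and Zfp318, 0.772) the loosest. Between 255 and 568 genes exceeded an r of 0.9 with each of Tlr2, Tlr4, Tlr8, Tlr9 and Tlr13. Within the family, Tlr4 and Tlr8 tracked each other most closely (r = 0.974 over 28 libraries), and after the group means were removed r was 0.311, so most of the likeness lay between groups, which also share cytokine and depth. These correlations are descriptions over libraries that fall into groups, and carry no p. Tlr1 and Tlr6, the neighbouring near copies, had r = 0.510 over libraries and -0.189 within groups.

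The receptors' partners and signalling chain were read from a list of 72 genes in 7 roles, of which 64 were tested. In IFN-γ against IL-10 non-phagocytic macrophages 23 were higher and 30 lower, against 26.0% and 25.1% of all genes. Of the 5 adaptors tested, 4 were lower and 0 higher. Myd88, the adaptor of most Toll-like receptors, was at 24.3 TPM against 77.2 TPM as group means (log2 -1.35 ± 0.111, limma adjusted p = 1.12e-05), Tirap, which bridges Tlr2 and Tlr4 to Myd88, differed by -1.38 ± 0.175, and Ticam2, which bridges Tlr4 to Ticam1, by -0.66 ± 0.0880. Ticam1, the adaptor of Tlr3, was not called (-0.39 ± 0.162, limma adjusted p = 0.0715).

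Accessory and trafficking molecules split. Of 15 tested, 11 were lower and 4 higher under IFN-γ. The endosomal chaperone Unc93b1 was lower (log2 -0.43 ± 0.0259, limma adjusted p = 1.48e-06), as was Nrros (-1.37 ± 0.0752), a leucine-rich repeat protein of the endoplasmic reticulum, and Cd14 was lower by 0.17 on this scale (limma adjusted p = 0.0237). Ly96, the co-receptor that completes the lipopolysaccharide site of Tlr4, went against its partner at 0.87 ± 0.184 (limma adjusted p = 0.00358), and Cd180, a Tlr4-like surface protein, was higher by 1.12 ± 0.0964. Of the 6 tested target cytokines 4 were higher and 1 lower. Tnf (2.47 ± 0.192) and Ccl5 (4.03 ± 0.0885) were higher under IFN-γ, as was the transcription factor Irf7 (2.50 ± 0.0814), while Il1b was lower (-1.74 ± 0.162). Of the 10 tested inhibitors 6 were higher and 3 lower, of 19 kinases and ubiquitin ligases 6 and 7, and of 9 transcription factors 3 and 4. T cells can express Ccl5 and Tnf, and their markers were also higher in these libraries, as given above. Whether T cell RNA had a part in the Ccl5 and Tnf differences was not tested.

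Against M0, IFN-γ non-phagocytic macrophages had 24 of 64 list genes higher and 22 lower, where 27.0% and 26.1% of all genes were, and 4 of 5 adaptors lower. With IL-10, 21 were higher and 8 lower, where 13.8% and 12.8% of all genes were. Myd88 rose with IL-10 (log2 0.89 ± 0.0396, limma adjusted p = 7.71e-07) and fell with IFN-γ (-0.45 ± 0.117, limma adjusted p = 0.0101), the same directions as Tlr2 and Tlr4. Il1b rose with IL-10 (2.09 ± 0.129), and Tnf (-1.07 ± 0.120) and Cd14 (-0.39 ± 0.0228) fell.

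In the comparison in which Tlr1 rose, IFN-γ Treg- against Tconv-phagocytic libraries, 13 of 64 list genes were called, against 12.7% of all genes. The 5 that rose were all accessory or trafficking molecules: Cd14 (log2 0.34 ± 0.0581) and the lysosomal proteases Ctsl (0.41), Ctss (0.33), Ctsb and Lgmn, which cut endosomal receptors. The 8 that fell were Chuk (-1.01 ± 0.0981) and Tbk1 (-0.82 ± 0.130), kinases upstream of NF-kB and of interferon factors, the NF-kB subunit Rel (-0.84 ± 0.142), Ikbke, Map3k8, Peli1, Nfkbia and Ccl5. None of the 5 tested adaptors was called. With IL-10, 12 list genes were higher and 4 lower after Treg uptake than without uptake (16 of 64, against 11.3% of all genes called), with Ccl5 (1.07 ± 0.0976), Cxcl10 (0.98 ± 0.178) and Tnf (0.85 ± 0.143) rising most, and Ctsl (-0.36 ± 0.0472), Map3k7 (-0.34 ± 0.0849) and Myd88 (-0.23 ± 0.0335) falling. The remaining mouse members of the family, Tlr11 and Tlr12, were at group means of at most 0.155 and 0.495 TPM and were not tested.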

How the data were processed

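RNA was extracted with RNAiso PLUS, cleaned on NucleoSpin columns, and made into libraries from poly(A) RNA with the NEBNext Ultra II Directional kit, per the labels' protocols. The authors deposited 1 table of TPM values per library, rounded to 2 decimals. The submitters' processing notes name STAR, RSEM and mm10, and the annotation release is not given in the sources used here. TPM is a share of each library, so a change in a few abundant genes moves all others. Of 55487 gene IDs, 55141 matched a symbol. No 2 of the 28 libraries (378 pairs) held identical values.

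From the deposited TPM, each library was scaled by a trimmed mean of log2 ratios over 11561 genes (30% of ratios and 5% of levels trimmed at each end). log2(scaled TPM + 1) was fitted in limma 3.58.1 (R 4.3.3) with a mean-variance trend, for the groups compared, over 13631 genes that reached 1 TPM in 4 or more libraries. Differences of contrasts between the cytokines used the 4 groups involved. A call is a Benjamini-Hochberg adjusted p under 0.05 over all of these genes, and the procedure was tested on simulated data. Depth was estimated from the steps of low TPM values: 88.65% to 91.93% of them lay within 0.15 of a whole read, where chance gives 30%. Intervals and limits from read numbers cover counting error only.

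All 10 members are named. The 2 genes most like each tested member were taken by Pearson r among genes with a mean of at least 5 TPM in 1 group. From the pathway list, the 3 called genes with the largest change in each direction and the direct partners of the receptors are named with values, and the other genes named are the complete called sets of short counts. The members, lists and markers (macrophages, T cells, B cells, plasmacytoid and conventional dendritic cells, neutrophils, fibroblasts) were chosen with earlier results of these data known. Alternatives changed the scaling, pseudocount, filter, model, variance weights, a GC and length correction, a replicate block and the libraries included. Protein sequences were not used here. 1 further promoter motif is not reported here.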

Additional observations from a re-analysis of the deposited data

Results flagged for a closer look

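In the check for a library far from the other 3 of its group (a gap to its neighbour above Dixon's 95% critical share of the range), 6 of 70 gene and group combinations stood out, where chance gives about 1 in 20. Tlr7 in IFN-γ Treg library Ax647-1 was at 69.29 TPM, against 31.36 to 35.49 TPM in the rest of its group. Tlr2 in IL-10 non-phagocytic library 2 was at 45.99 TPM, above 42.41 to 42.94 TPM. Tlr13 in IFN-γ Tconv library Ax647-2 was at 25.95 TPM, above 21.85 to 22.46 TPM. The remaining 3 concern the low gene Tlr5. It was at 0.15 TPM in IFN-γ Treg library BV421-2, where the others were at 0, which is below the limit of 3 reads. It was at 0.49 TPM in IL-10 non-phagocytic library 3 and 0.30 TPM in IL-10 Treg library Ax647-1, both above that limit.

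Contrasts between the sorted populations differed between the cytokines by a test of the difference itself for 2 genes. Each was 1 of 9 members in its test, where 13.6% (Treg against Tconv) and 9.46% (Treg against non-phagocytic) of all genes were called. The Treg minus Tconv contrast of Tlr1 was larger under IFN-γ by 0.618 on the log2 scale, and the Treg minus non-phagocytic contrast of Tlr4 was larger by 0.475. The direction of both held in every alternative run, but not the call. With a replicate block by title number the limma adjusted p was 0.0568 for Tlr1. With a block by file number it was 0.0653 for Tlr4. The depth and the T cell marker level of the libraries also differed between the cytokines, and their part was not tested.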

How the results depend on the processing

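No member changed direction in a comparison where it was called, in any of 2650 recomputed values: 2562 kept their status, 58 lost a call and 30 gained one. Members that were never called are among the 2562, so this does not measure how firm the calls are. The IFN-γ Treg calls of Tlr1 were lost in 7 of 21 alternatives against Tconv and 8 of 19 against non-phagocytic. Against IL-10 non-phagocytic libraries, Tlr7 and Tlr13 (Treg) lost theirs in 3 and 11 of 19, and Tlr4 (Tconv) in 10 of 19. Of 296 recomputed counts of called members, 248 stayed within 1.5 times of the value in the report. When 1 library was left out, the IFN-γ against IL-10 counts were 7 to 8 members without uptake, 6 to 7 after Treg uptake and 8 to 9 after Tconv uptake. With no filter, which adds Tlr5, the count after Tconv uptake was 10. The cause was not tested for any of the changes below.

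With all 28 libraries in 1 model, which gives every group 1 shared spread, IFN-γ Treg against Tconv had 3 called members in place of 1 (4433 genes in all in place of 1732), IFN-γ Treg against non-phagocytic 4 in place of 1 (3868 genes in place of 1129), IL-10 Treg against non-phagocytic 0 in place of 2 (627 genes in place of 1545), IL-10 Tconv against non-phagocytic 0 in place of 1 (249 genes in place of 821) and IL-10 against M0 3 in place of 6 (Tlr6, Tlr7 and Tlr8 were lost, 1806 genes in place of 3626). With no filter the counts were 0 for IFN-γ Treg against Tconv, 0 for IFN-γ Treg against non-phagocytic and 0 for IL-10 Treg against non-phagocytic. No scaling moved the share of higher genes among all called genes from 42.6% to 15.1% in IFN-γ Treg against Tconv, from 36.2% to 17.5% in IFN-γ Treg against non-phagocytic, from 60.2% to 26.9% in IL-10 Treg against non-phagocytic and from 69.9% to 25.4% in IL-10 Tconv against non-phagocytic. IL-10 Treg against non-phagocytic had 4 called members with no scaling, 4 with a variance weight per group and 4 with the GC and length correction, in place of 2 higher. Of these 4, Tlr2, Tlr4 and Tlr8 were lower with no scaling, Tlr4 with the variance weight, and Tlr4 and Tlr8 with the correction. Without 1 library, the counts ranged from 0 to 1 for both IFN-γ Treg comparisons and for IL-10 Tconv against non-phagocytic, from 1 to 2 for IL-10 Treg against non-phagocytic, and from 1 to 2 for the cytokine difference of Treg against Tconv and of Treg against non-phagocytic.

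Replicate numbers did not pair the samples: same-numbered libraries had correlations of deviations between -0.0668 and 0.0852. With a replicate block by title number, 0 members were called in IFN-γ Treg against Tconv and 0 in its cytokine difference (Tlr1 adjusted p = 0.0771 and 0.0568), also 0 and 0 with the GC and length correction. With a replicate block by file number the counts were 0 for IFN-γ Treg against non-phagocytic (also 0 with the correction), 1 for IL-10 Treg against non-phagocytic, 0 for IL-10 Tconv against non-phagocytic (also 0 with the correction) and 0 for the cytokine difference of Treg against non-phagocytic (Tlr4 adjusted p = 0.0653). The file-number block with the correction, added after seeing the data, gave 2 in IFN-γ Treg against Tconv and 2 in its cytokine difference.

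The IFN-γ libraries were the shallowest, so small differences in the members with the fewest reads, such as Tlr3 and Tlr5, are the least resolved there.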
